A study of Mus musculus with 8 samples.

Results

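The 10 genes described here encode the cytosolic chaperone HSP90 in its 2 forms, Hsp90aa1 and Hsp90ab1, and 8 co-chaperones that work with it: Ahsa1, Ahsa2, Chordc1, Cacybp, Stip1, Fkbp4, Ptges3 and Cdc37. They were taken by name from the 48676 gene rows of the deposited tables of nuclear RNA from stressed mouse fibroblasts. Each name had 1 row, and all 10 passed the filter on low values that left 16056 rows for testing. After heat shock 5 of the 10 rose (Hsp90aa1, Cacybp, Ahsa2, Chordc1 and Ptges3) and 0 fell, where 2.54% of all tested rows rose and 4.08% fell. After osmotic stress with KCl 0 of the 10 passed the same test (0.691% of all tested rows), and after oxidative stress with H2O2 0 of the 10 did (1.48%).

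HSP90 is a dimer that binds partly folded proteins, many of them kinases and steroid hormone receptors, and releases them in a cycle of ATP binding and hydrolysis. Co-chaperones set the pace of that cycle and bring the client proteins: adaptors load clients onto the open dimer, activators speed up the ATPase, and late factors hold the closed, ATP-bound form. In mammals Hsp90aa1 is known as the inducible form and Hsp90ab1 as the constitutive one. The transcription factor HSF1 binds heat shock elements, inverted repeats of the letters GAA, upstream of many chaperone genes.

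The cells were NIH3T3, an established line of mouse embryonic fibroblasts, for which the labels name no transgene or deletion. The 4 groups were untreated cells (UN), heat shock at 44 °C (HS), osmotic stress with 200 mM KCl (KCL) and oxidative stress with 0.2 mM H2O2 (H2O2), each stress for 2 h. Each group had 2 libraries, and RNA came from an enriched nuclear fraction, so levels are those of nuclear RNA. The series addresses readthrough, transcription that runs past gene ends under stress in these 3 stresses. Nothing in the labels says whether both libraries of a group were separate cultures, and p-values here therefore measure the spread between libraries, which may be technical.

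Values are RPKM, reads scaled to the length of the gene model and to the mapped reads of the library, so levels of different genes can be compared per length. The 8 libraries were similar in depth within each table: 1 fragment on a row of olfactory receptor genes was worth 0.0146 to 0.0151 RPKM in the libraries numbered 1 and 0.0187 to 0.0205 RPKM in those numbered 2. On a row of that length, the lowest member level of a library would stand for 691 to 1761 fragments. KCl replicate 1 stood apart, with an RPKM sum of 1943321 against 503430 to 771673 in the other 7 libraries. The row AC113316.1 made up 1025070 RPKM of that sum, and Malat1, an abundant nuclear RNA, had an entry of 0 there. The 8 fibroblast markers each had a mean of at least 0.5 RPKM in every group, but Pdgfrb and Thy1 were low, down to 0.298 and 0.732 RPKM. Together the 8 summed to 2239 to 3149 RPKM in untreated cells, 1426 to 1623 after heat shock, 1836 to 2228 after KCl and 1701 to 1835 after H2O2. After heat shock 2 of these 8, Fn1 and Sparc, fell, beside 4.08% of all tested rows. The 8 markers of other cell types summed to 0.397 to 0.735 RPKM in the first 3 groups and 1.76 to 2.53 after H2O2. The 2 that could be tested, Cdh1 and Pecam1, passed the filter only through the H2O2 libraries, so higher values there follow from that selection. After H2O2 Cdh1 rose (log2 change 1.34, limma adjusted p = 0.037), beside 207 of all 16056 rows, and Pecam1 did not pass (1.18, 0.055). The part of these shifts in the results was not tested.

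Promoter windows from RefSeq (GRCm38.p6, 250 bases before to 50 after the annotated start) were available for 8 members. Hsp90aa1 and Hsp90ab1 had no window and were not searched. Those of the 3 members that hold a heat shock element are shown, followed by those of Cacybp and Ahsa2, which rose after heat shock and hold none. The motifs were GAANNTTC and TTCNNGAA, each read on both strands, which are the 2-unit forms of the element and may overlap. Capitals mark them, and 280 bases are printed, ending 30 bases after the start.
Chordc1, chr9:18292017-18292296, + strand: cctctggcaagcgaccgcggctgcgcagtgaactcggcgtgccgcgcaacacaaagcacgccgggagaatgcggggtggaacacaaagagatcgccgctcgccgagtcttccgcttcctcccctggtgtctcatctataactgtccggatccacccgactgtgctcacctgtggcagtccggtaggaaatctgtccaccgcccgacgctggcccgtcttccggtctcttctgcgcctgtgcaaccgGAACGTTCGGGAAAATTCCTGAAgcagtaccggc
Fkbp4, chr6:128438627-128438906, - strand: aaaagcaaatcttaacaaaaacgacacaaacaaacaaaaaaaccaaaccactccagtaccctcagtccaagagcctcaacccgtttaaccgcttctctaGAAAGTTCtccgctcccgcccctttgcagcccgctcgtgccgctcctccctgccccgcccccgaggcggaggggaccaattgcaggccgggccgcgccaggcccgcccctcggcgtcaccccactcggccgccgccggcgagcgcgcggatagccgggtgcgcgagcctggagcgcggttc
Cdc37, chr9:21149905-21150184, - strand: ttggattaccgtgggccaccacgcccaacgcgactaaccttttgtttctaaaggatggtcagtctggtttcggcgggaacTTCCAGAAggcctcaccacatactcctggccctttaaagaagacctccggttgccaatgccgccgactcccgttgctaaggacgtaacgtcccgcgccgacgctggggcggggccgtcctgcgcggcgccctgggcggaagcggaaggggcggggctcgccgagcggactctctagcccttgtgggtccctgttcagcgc
Cacybp, chr1:160212863-160213142, - strand: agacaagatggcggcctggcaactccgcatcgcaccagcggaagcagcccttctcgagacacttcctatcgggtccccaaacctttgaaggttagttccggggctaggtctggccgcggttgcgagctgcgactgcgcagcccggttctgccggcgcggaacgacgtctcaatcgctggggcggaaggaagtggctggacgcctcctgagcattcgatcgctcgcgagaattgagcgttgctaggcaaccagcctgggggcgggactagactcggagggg
Ahsa2, chr11:23498010-23498289, - strand: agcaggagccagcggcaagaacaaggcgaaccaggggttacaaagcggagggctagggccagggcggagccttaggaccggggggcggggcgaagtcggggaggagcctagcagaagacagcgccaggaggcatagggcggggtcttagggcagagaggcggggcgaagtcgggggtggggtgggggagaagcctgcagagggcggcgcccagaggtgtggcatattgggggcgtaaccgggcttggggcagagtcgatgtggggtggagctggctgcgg

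Chordc1 stood out in its sequence. Its window held 5 2-unit elements, at positions -4, 2, 7, 12 and 34 from the start. The first 4 overlap and form the unbroken capitals above, and the last stands apart, past the printed bases. At least 5 elements, overlaps counted, were found in 3 of 32851 windows (0.0091%), a cutoff taken from the count of Chordc1 itself. The other windows were those of Gm19583 and Cdr1, whose rows were at or near 0 in all 8 libraries and were not tested. It was also the 1 member of the 8 with a 3-unit element, in which the 2-unit form goes on after 2 further bases with 1 more inverted unit, and which 0.603% of all windows hold. Fkbp4 and Cdc37 held 1 element each, at -151 and -170, and 15.1% of all windows hold at least 1. Ahsa1, Ahsa2, Cacybp, Ptges3 and Stip1 had no match. The letters TATAAA were found for Stip1 alone, at -30 (13.6% of all windows), and CCAAT on either strand for Ahsa2, Cdc37, Fkbp4 and Stip1 (37.4% of all windows). Of the 3 genes with an element, Chordc1 rose after heat shock and Fkbp4 and Cdc37 did not pass the test, while Cacybp, Ahsa2 and Ptges3 rose without a match. A match describes letters and is not a binding site, and no match says only that these letters are not in this window.

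Hsp90aa1, the inducible HSP90 gene, stood at 92.1 and 92.0 RPKM in untreated cells and reached 1124 and 995 RPKM after heat shock. After KCl it was at 115 and 93.0 RPKM, and after H2O2 at 84.9 and 111 RPKM. The heat shock libraries lay far above the other 6, which ranged from 84.9 to 115 RPKM. Its mean after heat shock, 1059 RPKM ± 91.7 (SD, n = 2), was 11.5-fold that of untreated cells (log2 change 3.52, SE 0.20, 95% interval 3.04 to 3.99, limma adjusted p = 0.00053). This was the 39th largest rise among the 16056 rows tested. In level, Hsp90aa1 moved from 713th of these rows in untreated cells to 38th after heat shock. RPKM is relative to the whole library, so more of this RNA per cell, less of other RNA and a shift in cell makeup cannot be told apart.

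Part of the Hsp90aa1 signal is uncertain because its sequence has near copies. Of the 50-base stretches of its annotated transcripts, 47.5% also occur in other genes, 41.8% in Gm12346 and 29.9% in Gm5844, and 0 are shared with Hsp90ab1. How reads that match several genes were counted is not given in the sources used here. Gm12346 stood at 32.4 and 36.2 RPKM in untreated cells and 113 and 91.1 RPKM after heat shock, and rose (log2 change 1.56, SE 0.26, limma adjusted p = 0.024). Gm5844 stood at 11.5 and 13.3 RPKM and at 44.9 and 37.2 RPKM, and also rose (log2 change 1.68, SE 0.19, limma adjusted p = 0.012). The split of reads between the 3 rows was not tested. Shared stretches made up 19.6% for Ptges3, 6.74% for Cacybp and 5.59% for Stip1, and less for the other 6.

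Hsp90ab1, the constitutive HSP90 gene, was the most abundant member in every group. It stood at 767 and 610 RPKM in untreated cells, 1238 and 1080 RPKM after heat shock, 645 and 520 RPKM after KCl and 381 and 510 RPKM after H2O2. Both heat shock libraries lay above the other 6, and both H2O2 libraries lay below the untreated ones. The heat shock difference did not pass the test: a 1.68-fold level (95% interval 1.09 to 2.61, log2 difference 0.76, limma adjusted p = 0.13). It passed in 0 of the 8 fits without 1 library and under 1 of the 11 other settings, a common column sum without the highest row, chosen after seeing the data (log2 1.15, limma adjusted p = 0.046, with 0.046 to 0.56 over the alternatives).

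**Figure D1:**
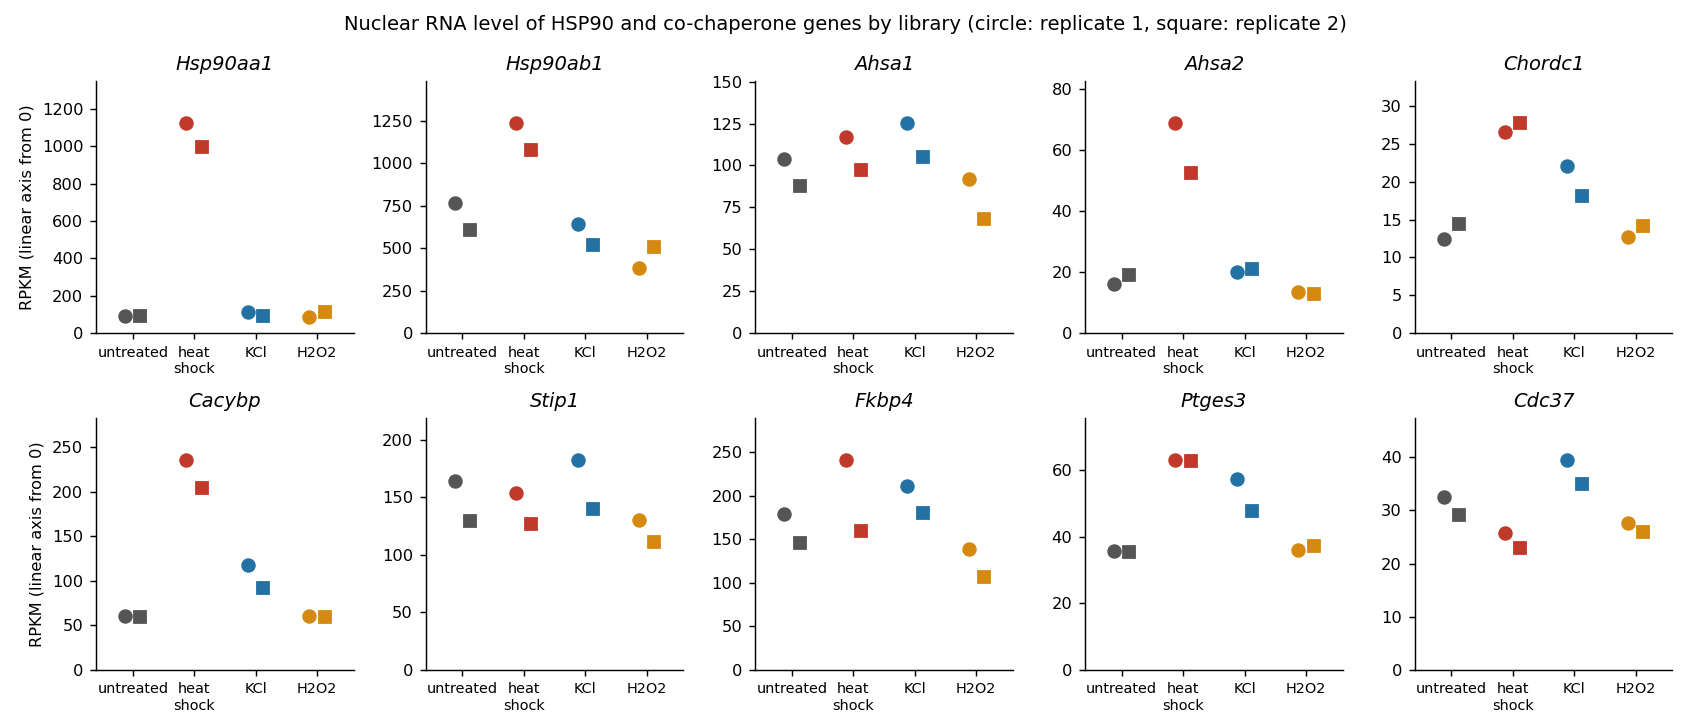
RPKM of each of the 10 members (y axes linear from 0) in the 8 libraries, by group; circles are replicate 1 and squares replicate 2. For Hsp90aa1 the heat shock libraries at 1124 and 995 RPKM stand apart from the other 6, which lie between 84.9 and 115 RPKM. For Stip1 the heat shock libraries overlap those of each other group.

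Hsp90aa1 made up a larger share of HSP90 RNA after heat shock. Hsp90aa1 held 10.7% and 13.1% of the summed RPKM of both genes in untreated cells and 47.6% and 48.0% after heat shock. After KCl it held 15.1% and 15.2%, and after H2O2 18.2% and 17.9%. The share does not depend on a scaling factor for the whole library, and each of the 3 stresses lay above untreated cells in both libraries. The difference was 35.9 percentage points for heat shock, 3.23 for KCl and 6.16 for H2O2, each with a two-sided exact permutation p = 0.333, the smallest that 2 against 2 libraries allow. Under H2O2 the mean log2 difference was -0.63 for Hsp90ab1 and 0.08 for Hsp90aa1, and neither passed the test. Taken by replicate number, Hsp90ab1 was at -1.01 and -0.26 and Hsp90aa1 at -0.12 and 0.27, so the balance between the genes differed. The summed RPKM of both genes was 859 and 702 in untreated cells, 2363 and 2074 after heat shock, 760 and 613 after KCl and 466 and 622 after H2O2.

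**Figure D2:**
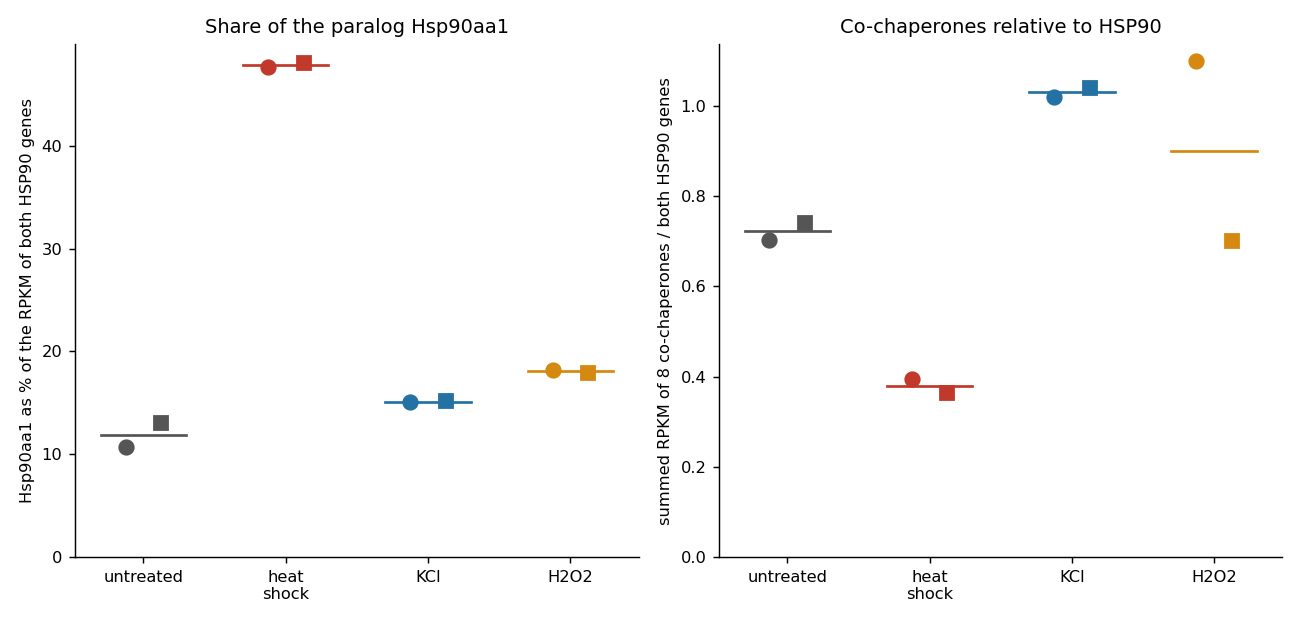
Left, Hsp90aa1 as a percent of the summed RPKM of Hsp90aa1 and Hsp90ab1; right, summed RPKM of the 8 co-chaperones divided by that of both HSP90 genes, by group (circles replicate 1, squares replicate 2, lines group means, y axes from 0). The share is 47.6% and 48.0% after heat shock against 10.7% and 13.1% in untreated cells, and the ratio is lowest after heat shock at 0.394 and 0.363.

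Ahsa1 and Ahsa2 are related, Ahsa1 being the known activator of the HSP90 ATPase. Ahsa1 stood at 104 and 87.9 RPKM in untreated cells, 117 and 97.2 RPKM after heat shock, 125 and 105 RPKM after KCl and 92.1 and 68.0 RPKM after H2O2. Its heat shock and untreated libraries overlapped (1.12-fold, 95% interval 0.791 to 1.58, limma adjusted p = 0.68). Ahsa2 stood at 16.2 and 19.1 RPKM in untreated cells, 68.8 and 52.3 RPKM after heat shock, 20.1 and 20.8 RPKM after KCl and 13.5 and 12.9 RPKM after H2O2. The heat shock libraries of Ahsa2 lay well above the other 6, and its level rose 3.44-fold (log2 change 1.74, SE 0.17, limma adjusted p = 0.0062). The call was lost without untreated replicate 1 (log2 1.63, limma adjusted p = 0.062, with 0.003 to 0.062 over the alternatives).

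The Ahsa2 gene overlaps Usp34, a deubiquitinase gene on the opposite strand, and the strand that was counted is not given in the sources used here. Usp34 stood at 12.6 and 17.7 RPKM in untreated cells and 14.7 and 20.7 RPKM after heat shock, and did not pass the test (log2 difference 0.22, limma adjusted p = 0.65). A non-coding gene that also overlaps, 1700030C12Rik, stayed between 0.151 and 0.524 RPKM in the 8 libraries. The row mKIAA0570, listed between Usp34 and Ahsa2, was low, with a mean log2(RPKM + 0.5) of -0.156 over the 8 libraries. It rose after heat shock (log2 change 2.73, limma adjusted p = 0.0057), and its relation to either gene was not tested.

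Stip1 and Cdc37 are the adaptors. Stip1, known as HOP, links HSP70 to HSP90, and its levels were 164 and 130 RPKM in untreated cells, 154 and 127 RPKM after heat shock, 183 and 140 RPKM after KCl and 130 and 111 RPKM after H2O2. The heat shock and untreated libraries overlapped, with a ratio of 0.956 (95% interval 0.671 to 1.37, log2 difference -0.06, limma adjusted p = 0.89), and the sign turned under each of 4 scalings (0.05 to 0.43). Cdc37 brings kinases to HSP90, and its levels were 32.5 and 29.2 RPKM in untreated cells, 25.7 and 23.0 RPKM after heat shock, 39.6 and 35.0 RPKM after KCl and 27.6 and 25.9 RPKM after H2O2. Both heat shock libraries of Cdc37 were the lowest of its table, and the difference from untreated cells did not pass the test (log2 -0.33, 95% interval -0.66 to -0.01, limma adjusted p = 0.19). It turned to 0.14 and 0.06 under both common-sum scalings.

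Ptges3 and Fkbp4 act late in the cycle. Ptges3, known as p23, binds the closed dimer, and stood at 35.6 and 35.5 RPKM in untreated cells, 63.1 and 62.6 RPKM after heat shock, 57.4 and 47.7 RPKM after KCl and 35.9 and 37.2 RPKM after H2O2. Heat shock and KCl libraries both lay above the untreated and H2O2 libraries. The level rose 1.77-fold after heat shock (log2 change 0.81, SE 0.13, limma adjusted p = 0.024). Removing any 1 untreated, heat shock or H2O2 library ended the call with a log2 value of 0.81 or 0.82 (limma adjusted p = 0.052 to 0.17), as did the common sum (1.29, 0.34) and a fit of these 2 groups only (0.81, 0.053). Fkbp4, an immunophilin of steroid receptor complexes, stood at 179 and 145 RPKM in untreated cells and 241 and 159 RPKM after heat shock. After KCl Fkbp4 was at 211 and 180 RPKM and after H2O2 at 138 and 106 RPKM. Its heat shock libraries differed from each other by more than their mean differed from that of untreated cells (1.23-fold, 95% interval 0.792 to 1.86, limma adjusted p = 0.54).

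Chordc1 and Cacybp share with Ptges3 a CS fold, a module through which proteins bind HSP90. Chordc1 stood at 12.4 and 14.4 RPKM in untreated cells, 26.5 and 27.7 RPKM after heat shock, 22.0 and 18.1 RPKM after KCl and 12.7 and 14.1 RPKM after H2O2. It rose 2.03-fold after heat shock (log2 change 1.00, SE 0.15, limma adjusted p = 0.021), the member with the run of heat shock elements printed above. The call ended without any 1 untreated or heat shock library (log2 0.89 to 1.10, limma adjusted p = 0.061 to 0.15), under the common sum (1.47, 0.19) and in a fit of these 2 groups only (1.00, 0.053).

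Cacybp, which also binds the calcium sensor S100A6 and the ubiquitin ligase Siah1, had the highest mean rise among the co-chaperones, with an interval that overlaps that of Ahsa2 (log2 1.34 to 2.14). It stood at 60.8 and 59.2 RPKM in untreated cells, 236 and 204 RPKM after heat shock, 118 and 92.0 RPKM after KCl and 60.1 and 59.6 RPKM after H2O2. Heat shock libraries were the highest, KCl libraries lay between, and untreated and H2O2 libraries were nearly the same. The heat shock level was 3.66-fold that of untreated cells (log2 change 1.86, SE 0.17, 95% interval 1.47 to 2.26, limma adjusted p = 0.0048). The call was lost without heat shock replicate 1 (log2 1.76, limma adjusted p = 0.053, with 0.00043 to 0.053 over the alternatives). From 1152nd in level among all tested rows in untreated cells, Cacybp moved to 182nd after heat shock.

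Across the 10 members, the median log2 difference of heat shock against untreated cells was 0.79, beside -0.09 over all rows tested. The median of all rows moved to 0.30 under the common sum and 0.23 under the common sum without the highest row, and that of the members to 1.26 and 1.18, so the members stayed 0.96 and 0.95 above it. In 6 members both heat shock libraries lay above both untreated ones (22.0% of all tested rows), and in Cdc37 both lay below (35.8% of all tested rows). Hsp90aa1 kept its call in all 8 fits without 1 library and under all 11 other settings, with log2 values of 3.43 to 4.22.

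**Figure D3:**
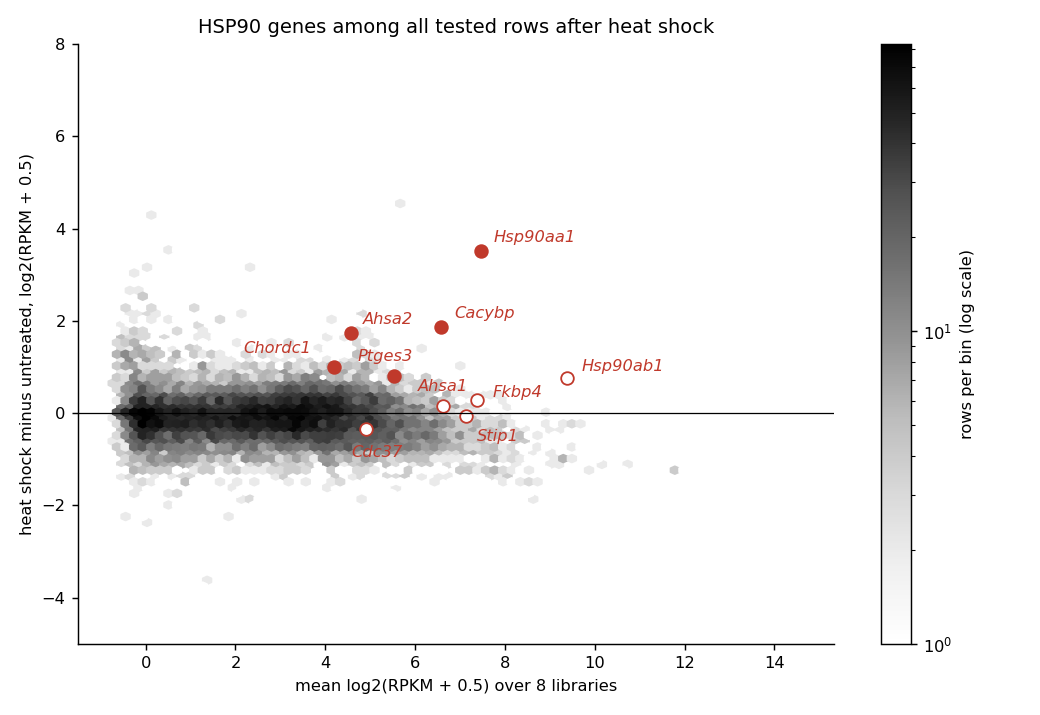
Difference between heat shock and untreated cells (y, log2 scale) against the mean log2(RPKM + 0.5) over 8 libraries (x) for 16035 tested rows in grey (darker means more rows, log scale), with the 10 members in red, filled where limma's adjusted p was under 0.05. A further 21 rows fell outside the y axis of -5 to 8. Hsp90aa1 is at 3.52 and Cacybp at 1.86, above the grey mass around -0.09, and Stip1 and Cdc37 lie within it.

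Relative to HSP90 itself, the summed level of the co-chaperones was lower after heat shock. The 8 co-chaperones summed to 604 and 520 RPKM in untreated cells, 932 and 753 RPKM after heat shock, 776 and 639 RPKM after KCl and 511 and 435 RPKM after H2O2. Divided by the summed RPKM of both HSP90 genes, this was 0.703 and 0.741 in untreated cells and 0.394 and 0.363 after heat shock (two-sided exact permutation p = 0.333, the smallest possible). After KCl the ratio was 1.02 and 1.04, above untreated cells in both libraries (exact permutation p = 0.333). After H2O2 the libraries disagreed, at 1.10 and 0.700.

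The ratio was not lower for every co-chaperone. Per HSP90, Stip1 was at 0.191 and 0.185 in untreated cells and 0.0652 and 0.0612 after heat shock. Cdc37 was at 0.0378 and 0.0416 and then at 0.0109 and 0.0111. Cacybp per HSP90 was instead at 0.0708 and 0.0843 and then at 0.0997 and 0.0984, so it alone was higher in both heat shock libraries. This was not particular to heat shock, as Cacybp per HSP90 was at 0.155 and 0.15 after KCl and 0.129 and 0.0959 after H2O2. Ahsa2 per HSP90 overlapped between untreated and heat shock libraries (0.0188 and 0.0272 against 0.0291 and 0.0252). Cacybp and Ahsa2, paired after their values were seen, made up 12.8% and 15.0% of the co-chaperone RPKM in untreated cells and 32.7% and 34.1% after heat shock. Each of these ratios had at best an exact permutation p = 0.333.

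Under KCl 0 of 10 members passed the test (limma; 3 had an unadjusted p under 0.05, Cacybp, Ptges3 and Chordc1, beside 22.1% of all rows). Cacybp came closest, at 1.75-fold the untreated level (log2 difference 0.79, SE 0.17, limma adjusted p = 0.089). It passed without KCl replicate 2 (0.97, limma adjusted p = 0.038), which leaves KCl replicate 1, the library with an aberrant RPKM sum, as the only one of its group. Chordc1 was at 1.50-fold (95% interval 1.15 to 1.90, limma adjusted p = 0.12) and Ptges3 at 1.48-fold (95% interval 1.18 to 1.83, limma adjusted p = 0.10). These 3 are members that rose after heat shock, but the comparisons share the untreated libraries. Hsp90aa1 was at 1.13-fold (95% interval 0.810 to 1.56, limma adjusted p = 0.64) and Ahsa2 at 1.16-fold (95% interval 0.879 to 1.53, limma adjusted p = 0.48).

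In 8 members both KCl libraries lay above both untreated ones, beside 38.8% of all rows, and the members' median log2 difference of 0.27 stood beside 0.18 over all rows. Under the common sum these medians were -0.40 and -0.35, and all members but Cacybp were at negative values. The sign under KCl turned in at least 1 scaling for the other 8 members. Cacybp was positive in every alternative run (0.12 to 0.97) and Hsp90ab1 negative (-0.91 to -0.07).

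Under H2O2 0 of 10 members passed (limma; 1 had an unadjusted p under 0.05, Hsp90ab1, beside 17.9% of all rows). Hsp90ab1 was at 0.647-fold the untreated level (95% interval 0.417 to 0.996, limma adjusted p = 0.28). Ahsa2 was at 0.750-fold (95% interval 0.575 to 1.00, limma adjusted p = 0.28) and Fkbp4 at 0.756-fold (95% interval 0.492 to 1.16, limma adjusted p = 0.46). The remaining members were within 0.822- to 1.07-fold. Cacybp and Chordc1 were at 0.998-fold (95% interval 0.758 to 1.31) and 1.00-fold (95% interval 0.781 to 1.29) of the untreated level. In 4 members both H2O2 libraries lay below both untreated ones (30.1% of all rows), and in Ptges3 both lay above (18.0% of all rows). The median was -0.23 for the members and -0.10 for all rows.

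**Figure D4:**
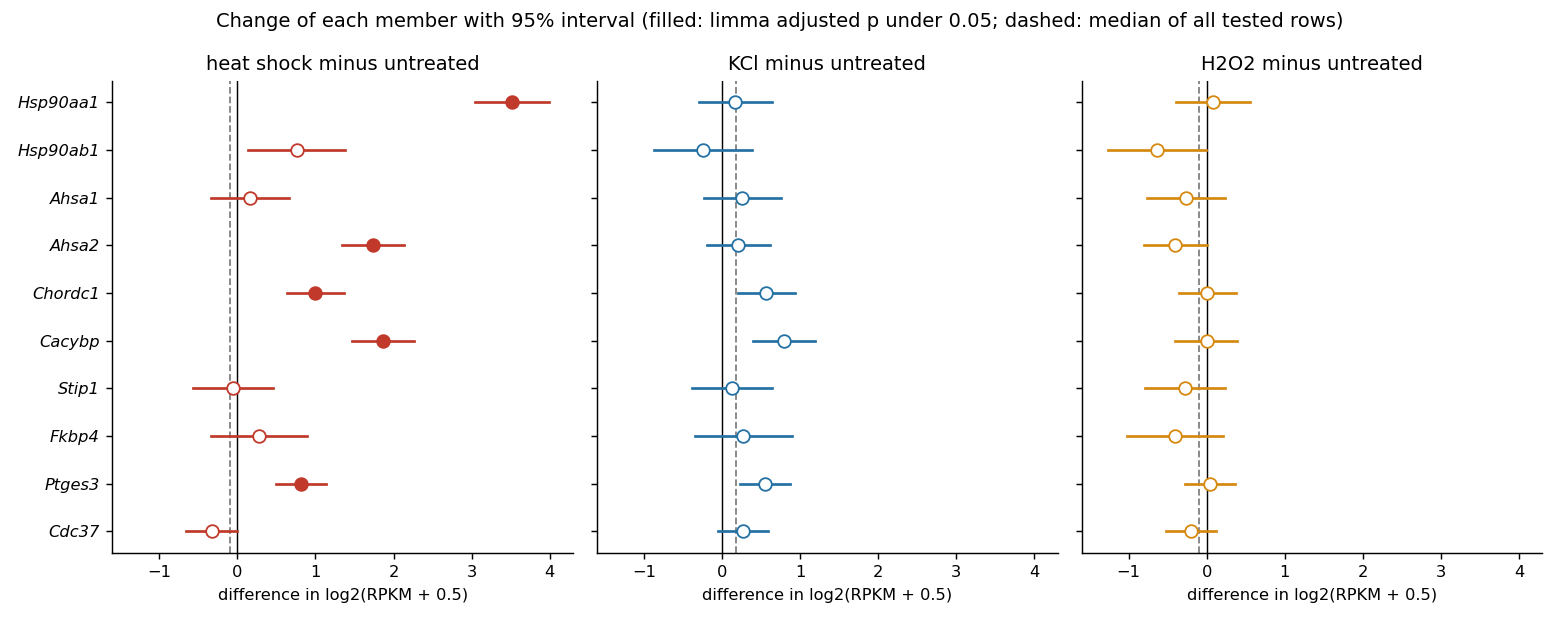
Log2 difference from untreated cells (x) of each member (y) under heat shock, KCl and H2O2, with 95% intervals from limma; filled points had an adjusted p under 0.05, and the dashed line is the median of all tested rows. Filled points appear for 5 members under heat shock, from 0.81 to 3.52, and for 0 under KCl and H2O2.

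The stresses were also compared with each other directly. Between heat shock and KCl, 3 members were higher after heat shock and 1 was lower (1.78% and 6.42% of all rows). Hsp90aa1 was 10.2-fold higher (log2 3.35, limma adjusted p = 0.00078), Ahsa2 2.96-fold (1.53, 0.009) and Cacybp 2.09-fold (1.07, 0.02). Without heat shock replicate 1 the calls of Ahsa2 (1.33, limma adjusted p = 0.068) and Cacybp (0.97, 0.15) were lost, and without heat shock replicate 2 that of Cacybp (1.17, 0.097). Cdc37 was 0.653-fold after heat shock relative to KCl (log2 -0.60, SE 0.14, limma adjusted p = 0.045). The Cdc37 call was lost without any 1 of the 8 libraries (limma adjusted p = 0.062 to 0.21), and its sign turned under the common sum (0.52).

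Between heat shock and H2O2, 6 members were higher after heat shock and 0 lower (5.76% and 8.4% of all rows). Hsp90aa1 differed 10.8-fold (log2 3.44, limma adjusted p = 0.00065), Ahsa2 4.59-fold (2.14, 0.0023) and Cacybp 3.67-fold (1.86, 0.0037), all of which kept their calls without any 1 library. Hsp90ab1 joined them here, 2.60-fold higher after heat shock than after H2O2 (log2 1.39, SE 0.26, 95% interval 0.76 to 2.02, limma adjusted p = 0.023). Its call was lost without heat shock replicate 1 (1.29), heat shock replicate 2 (1.49) or H2O2 replicate 1 (1.18), with a limma adjusted p of 0.10 to 0.14. Chordc1 (0.99, limma adjusted p = 0.015) was lost without the same 3 libraries (0.92 to 1.02, limma adjusted p = 0.087 to 0.11). Ptges3 (0.78, 0.019) was lost without any 1 of the 4 libraries compared (0.75 to 0.80, limma adjusted p = 0.065 to 0.12).

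Between KCl and H2O2, 4 members were higher after KCl and 0 lower (14.2% and 5.14% of all rows). They were Cacybp (log2 0.79, limma adjusted p = 0.028), Ptges3 (0.51, 0.043), Ahsa2 (0.61, 0.048) and Chordc1 (0.56, 0.048). All rows had a median of 0.27 in this comparison, and all 4 calls were lost under each of 4 scalings, with negative values under the common sum. Leaving out 1 library also ended calls: without any 1 heat shock or H2O2 library, or without KCl replicate 1, 0 of the 4 were called (log2 0.38 to 0.80), and without either untreated library Cacybp alone was.

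Ordered by level, Hsp90ab1 led in untreated cells with 689 RPKM ± 111 (SD, n = 2). Fkbp4 at 162 ± 23.7 and Stip1 at 147 ± 24.3 followed with overlapping libraries, then Ahsa1 at 95.8 ± 11.1 and Hsp90aa1 at 92.0 ± 0.0909, which also overlapped. Below them came Cacybp at 60.0 ± 1.16, Ptges3 at 35.5 ± 0.0258, Cdc37 at 30.8 ± 2.32, Ahsa2 at 17.6 ± 2.07 and Chordc1 at 13.4 ± 1.40 RPKM, all apart from their neighbours. After heat shock Hsp90ab1 at 1159 ± 112 and Hsp90aa1 at 1059 ± 91.7 overlapped at the top. Cacybp at 220 ± 22.3 had moved level with Fkbp4 at 200 ± 58.2, above Stip1 and Ahsa1. Ahsa2 at 60.5 ± 11.6 overlapped with Ptges3 at 62.9 ± 0.339, and Cdc37 at 24.3 ± 1.93 had become the lowest, below Chordc1 at 27.1 ± 0.870 RPKM.

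A list of 29 other genes of the HSP90 machinery held further TPR co-chaperones, the R2TP complex and the HSP90 forms of other compartments. After heat shock 1 of these 29 rose and 1 fell, beside 2.54% and 4.08% of all tested rows, with a median log2 difference of -0.16 beside -0.09 over all rows. Both counts are near those shares. Tomm70a, the mitochondrial import receptor that docks HSP90, was at 40.6 and 41.3 RPKM in untreated cells and 72.2 and 69.9 RPKM after heat shock, and rose (log2 change 0.79, SE 0.13, limma adjusted p = 0.025). Aarsd1, named for its alanyl-tRNA synthetase domain, was at 33.8 and 27.3 RPKM and then at 15.8 and 15.1 RPKM, and fell (log2 change -0.96, SE 0.16, limma adjusted p = 0.026). Without any 1 untreated or heat shock library 0 of the 29 passed, and without any 1 H2O2 library Aarsd1 alone did.

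The HSP90 forms of other compartments were lower in both heat shock libraries than in both untreated ones. Hsp90b1, the HSP90 of the endoplasmic reticulum and the only other row whose name starts with Hsp90, was at 337 and 479 RPKM in untreated cells, 165 and 213 RPKM after heat shock, 260 and 254 RPKM after KCl and 371 and 475 RPKM after H2O2. Both heat shock libraries lay below the other 6, and the difference from untreated cells just missed the threshold (log2 -1.10, 95% interval -1.69 to -0.50, limma adjusted p = 0.053). Trap1, the mitochondrial HSP90, was at 96.8 and 75.2 RPKM in untreated cells and 53.6 and 48.5 RPKM after heat shock (log2 -0.74, 95% interval -1.14 to -0.33, limma adjusted p = 0.053). Hsp90b1 and Trap1 are named for their kinship and not by the rule for named genes. After KCl and after H2O2 0 of the 29 passed (limma; 6 and 9 had an unadjusted p under 0.05, beside 22.1% and 17.9% of all rows), with medians of 0.25 and -0.14.

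**Figure D5:**
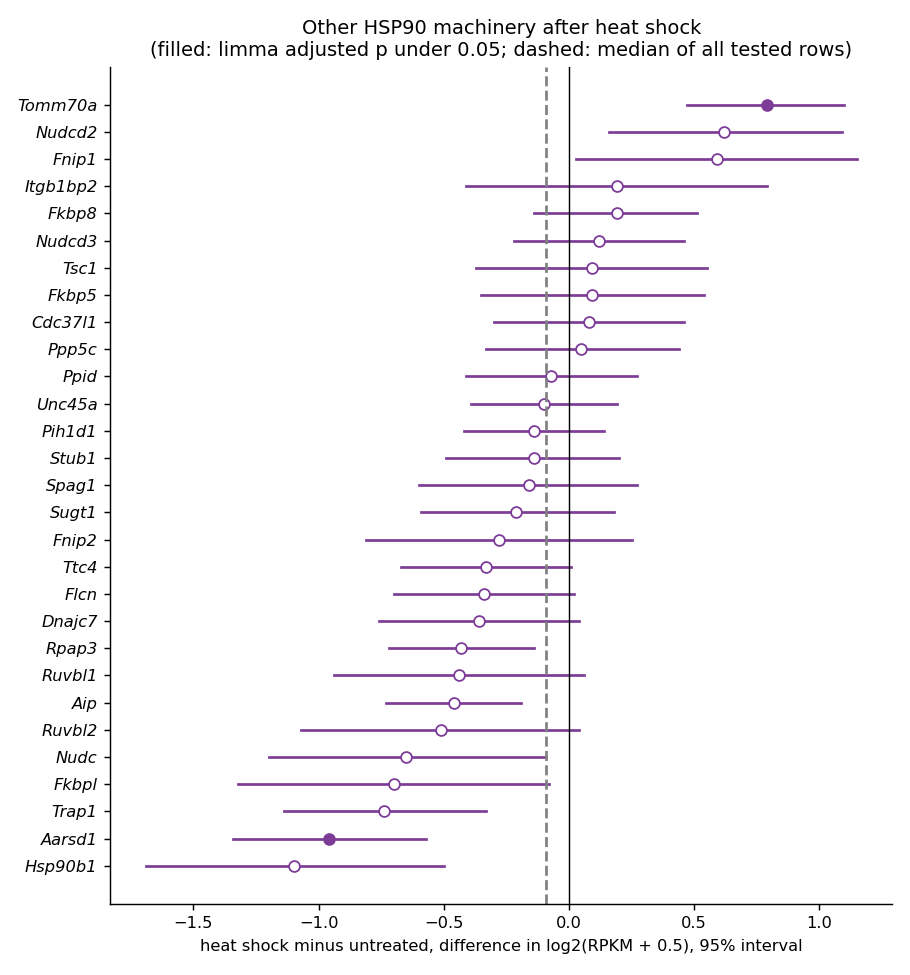
Log2 difference between heat shock and untreated cells (x) for 29 other genes of the HSP90 machinery (y), with 95% intervals from limma; filled points had an adjusted p under 0.05 and the dashed line is the median of all tested rows. Tomm70a at 0.79 and Aarsd1 at -0.96 are filled, and Hsp90b1 at -1.10 is the lowest.

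HSP90 client genes, 25 kinases, receptors and transcription factors such as Nr3c1, Akt1 and Cdk4, had 24 rows tested. None of them passed under heat shock, KCl or H2O2 (limma, 0 calls each; 2, 6 and 4 had an unadjusted p under 0.05, beside 25.5%, 22.1% and 17.9% of all rows), with medians of 0.10, 0.34 and -0.25. Of the 3 heat shock factor genes (Hsf1, Hsf2 and Hsbp1), 0 passed in any stress, and 0 had an unadjusted p under 0.05. Hsf1 was at 19.1 and 13.5 RPKM in untreated cells and 13.6 and 11.0 RPKM after heat shock (log2 -0.38, 95% interval -0.99 to 0.23, limma adjusted p = 0.40). A list of 9 HSP70 and HSP110 genes held the chaperones that pass clients to HSP90 and their exchange factors. After heat shock 5 of them rose, beside 2.54% of all tested rows. The list median was 1.30, beside -0.09 over all rows. The largest rises were those of Hspa1a (6.68), Hspa1b (6.22) and Hsph1 (4.51), against 3.52 for Hsp90aa1, with limma adjusted p-values of 3.3e-05, 3.3e-05 and 0.00013. Hspa1a and Hspa1b are near-identical copies, so the split between them is uncertain. After KCl 0 of the 9 passed. An unadjusted p under 0.05 (limma) was found for 0 of them after KCl and 4 after H2O2, beside 22.1% and 17.9% of all rows. After H2O2 1 fell, beside 31 of all 16056 rows. It was Hspa1b (-1.39, limma adjusted p = 0.027), a call lost without any 1 untreated, heat shock or H2O2 library.

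Over the 8 libraries, the log2 levels of Hsp90aa1 correlated with those of Ahsa2 at r = 0.954, Cacybp at 0.916, Hsp90ab1 at 0.866, Chordc1 at 0.843 and Ptges3 at 0.792. Over the 6 libraries without heat shock these values were 0.0825, 0.509, 0.311, 0.617 and 0.577. For Fkbp4 r was 0.42 over 8 libraries and 0.0353 without heat shock, and for Ahsa1 0.281 and 0.00427. The sign turned for Stip1 (-0.00175 and 0.172) and for Cdc37 (-0.62 and 0.295). These values describe points that fall into groups and share their library's scaling.

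Among 10937 other single rows, those most like Hsp90aa1 over the 8 libraries were Aldh1a3, an enzyme that makes retinoic acid (Pearson r = 0.997), Ccdc107 (0.996), Gm6096 (0.995), the RNA component Rmrp (0.994) and Gm13784 (0.994). Aldh1a3 stood at 0.573 and 0.685 RPKM in untreated cells and 6.97 and 6.93 RPKM after heat shock. The other 4 were at or near 0 in all 6 libraries without heat shock: Ccdc107 and Rmrp were listed at 0, Gm6096 was at most at 0.167 RPKM and Gm13784 at most at 0.0427 RPKM. Aldh1a3, at 0.461 to 0.713 RPKM in those 6 libraries, and these 4 reached the minimum mean of 1 RPKM only through the heat shock libraries. A high r with a gene that is high after heat shock was fixed by that choice. No likeness among the other groups can be read from it. The rows most like Hsp90ab1 were Helq (0.989), Casp2 (0.977), Morc4 (0.971), Zxdc (0.970) and Hspa8 (0.962), the constitutive HSP70. Hspa8 stood at 193 and 152 RPKM in untreated cells, 433 and 413 RPKM after heat shock, 170 and 130 RPKM after KCl and 99.8 and 89.3 RPKM after H2O2. Like Hsp90ab1 it was highest after heat shock and lowest after H2O2. These rows were picked for their correlation with Hsp90ab1, so a shared order of groups follows from that choice and is no separate result.

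Because the series concerns transcription past gene ends, the nearest annotated genes beside or overlapping each member were read from the same tables. Of 17 such genes with a row, 12 were tested and 1 passed after heat shock: Gm10069, a non-coding gene on the opposite strand upstream of Fkbp4. It stood at 2.49 and 2.13 RPKM in untreated cells, 9.11 and 6.59 RPKM after heat shock, 2.79 and 2.61 RPKM after KCl and 3.05 and 2.95 RPKM after H2O2, and rose (log2 change 1.56, SE 0.19, limma adjusted p = 0.013), while Fkbp4 itself did not pass. Of all tested rows 2.54% rose and 4.08% fell, so 1 call among 12 genes is no result about the neighbours. Downstream of a member and on its strand lay 5 genes, of which 1 was not tested and 0 passed, too few to read a result from. 1700001K19Rik, beside Hsp90aa1, was too low to be tested: untreated cells were listed at 0 and the heat shock libraries had 0.0876 and 0.130 RPKM. Fermt3, beside Stip1, was at 0.334 and 0.372 RPKM in untreated cells and 1.04 and 1.27 RPKM after heat shock (log2 difference 0.95, limma adjusted p = 0.13). Atp5b, beside Ptges3, went the other way, from 979 and 864 RPKM to 532 and 564 RPKM (-0.75, limma adjusted p = 0.083). For Itfg2, beside Fkbp4, the log2 difference was 0.35 (limma adjusted p = 0.33), and for Tyk2, beside Cdc37, it was 0.14 (limma adjusted p = 0.65). The tables give levels within gene models, so signal between genes was not analysed here.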

How the data were processed

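The 8 libraries were nuclear-enriched RNA of NIH3T3 cells, depleted of ribosomal RNA and sequenced strand-specifically per the labels' protocols. The authors deposited RPKM per gene row, per the file headers, in 2 tables with 1 library per group each. Bowtie, SAMtools and Cufflinks with the mouse build mm9 are named in the submitters' processing notes. Not given in the sources used here are versions, annotation, filters, the counted strand and the handling of reads that match several genes. Depth is not given as counts, so no counting interval was computed, and it was only gauged from the RPKM worth of 1 fragment.

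From these values, log2(RPKM + 0.5) was computed. Rows were kept where 2 or more of the 8 libraries reached 0.5 RPKM (16056 of 48676). All 8 libraries entered 1 linear model with a term per group, using limma 3.58.1 under R 4.3.3, whose moderated variances followed the mean level (2.59 prior and 4 residual degrees of freedom). The log scale with a pseudocount understates changes of low genes. Two-sided p-values of the 6 comparisons were adjusted over all tested rows (Benjamini-Hochberg) and called under 0.05. "Rose" and "fell" mean called. Folds are ratios of mean RPKM, and their intervals come from the log2 fit. Ratios of members were tested by exact permutation. The fit was tested on simulated data.

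The members and lists were chosen with earlier results of these data known. All 10 members are named, with the called genes of other lists that changed most (up to 3 each way), the 5 rows most correlated with each HSP90 gene and the nearest neighbouring genes. RefSeq promoters (GRCm38.p6) and shared 50-base stretches of GENCODE transcripts served for sequence only. Alternatives were 11 other settings (pseudocounts, filters, scalings, no mean trend, the replicate block, only the 2 groups compared) and 8 fits without 1 library, in which a lone library is assumed to vary like the other groups.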

Additional observations from a re-analysis of the deposited data

How the results depend on the processing

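Of the member calls, those of Hsp90aa1 after heat shock against each other group, and those of Ahsa2 and Cacybp after heat shock against H2O2, kept their side of the threshold in every alternative run, and the other calls did not. After heat shock against untreated cells the count of members called, 5, went to 3 under the common sum and 3 in a fit of 2 groups only, and ranged from 2 to 5 without 1 library. KCl against untreated cells had 0, 1 with the replicate block (Cacybp) and 0 to 1 without a library. Heat shock against KCl had 4, with 1 in a fit of 2 groups only and 1 to 3 without a library. Heat shock against H2O2 had 6, with 3 under the common sum and 3 to 6 without a library. KCl against H2O2 had 4, with 2 without a filter, 1 without a mean trend, 8 with the replicate block, 0 under median-of-ratios scaling, common sum, common sum without the highest row and quantile normalization, 0 in a fit of 2 groups only, and 0 to 3 without a library. In the labels, libraries of a replicate block share only a number. Deviations of same-numbered libraries correlated at 0.0624 to 0.264 over the pairs of groups, all positive, and the RPKM worth of 1 fragment also differed by number. Whether a number marks a shared day or batch is not given. With the replicate block 13.2% of all rows were called for heat shock against untreated cells and 2.7% for KCl against untreated cells. For KCl against H2O2 it called 32.6% of all rows, where the main fit called 19.3%.

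Of the other HSP90 machinery, 2 calls after heat shock became 0 under the common sum, 8 with the block, 0 in a fit of 2 groups only and 0 to 2 without a library, and the 0 calls after KCl ranged from 0 to 1. Clients had 0 calls after heat shock, but 3 under the common sum without the highest row and 1 under quantile normalization, and after KCl 1 with the block and 0 to 1 without a library. The 1 call of the HSP70 list after H2O2 became 0 under the common sum, with or without the highest row, 2 with the block, 0 in a fit of 2 groups only and 0 to 1 without a library.

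Signs turned as follows, with scalings in the order median-of-ratios, common sum, common sum without the highest row (chosen after seeing the data) and quantile. Stip1 after heat shock became 0.05, 0.42, 0.33 and 0.43 and Cdc37 0.14 and 0.06 under both common sums. After KCl Hsp90aa1 became -0.05, -0.50, -0.03 and -0.07, Stip1 -0.08, -0.54, -0.07 and -0.08, and under the common sum Ahsa1 was -0.40 (0.00 under quantile), Ahsa2 -0.43, Chordc1 -0.08, Fkbp4 -0.39, Ptges3 -0.11 and Cdc37 -0.39. After H2O2 Cacybp became 0.15, 0.19, 0.12 and 0.13. Under the common sum Cdc37 was 0.52 for heat shock minus KCl, and for KCl minus H2O2 Ahsa2 was -0.22, Chordc1 -0.28, Cacybp -0.07 and Ptges3 -0.34. Without 1 library, uncalled values crossed 0 for Stip1 (-0.23 to 0.11 after heat shock, -0.06 to 0.32 after KCl), Fkbp4 after heat shock (-0.02 to 0.58) and, after H2O2, Hsp90aa1 (-0.12 to 0.27), Chordc1 (-0.10 to 0.11) and Cacybp (-0.02 to 0.02). The cause was not tested, except that the common sum divides by totals of which KCl replicate 1 has the highest. The share of Hsp90aa1 in HSP90 RNA does not depend on a factor per library (quantile normalization is none), and each member had 1 row, so summing rows of a name left it at 47.8% after heat shock. With 2 libraries per group, the spread of a single gene is poorly known.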
